A study of Mus musculus with 16 samples.

Results

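Open chromatin near 8 genes of the positive selection response, *Egr1*, *Egr2*, *Egr3*, *Nab2*, *Nr4a1*, *Nr4a3*, *Cd5* and *Cd69*, was followed through thymocyte development in the mouse. A peak was counted for a gene when all of it lay in the gene body (GENCODE M21, mm10) or within 30 kb on either side. This took 506 of 476734 peaks, which merged into 168 of the 185978 regions of chromosomes 1 to 19.

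The peaks came from ATAC-seq, which reads out accessible DNA by the insertion of a transposase, of thymocytes sorted from 4 wild type C57BL/6J mice aged 9 weeks. Each mouse gave cells with neither CD4 nor CD8 (double negative, DN), with both (double positive, DP), with CD4 only (SP4) and with CD8 only (SP8), 16 libraries in all. DN cells were sorted without CD3 and lineage markers and single positive cells with CD3, and the labels do not divide DP cells by CD69 or TCR level, so cells before and during selection are in 1 sample. The authors pooled the reads of the 4 mice at each stage before peaks were called, so there was 1 list per stage, replicate errors could not be given and no difference could be tested. The lists held 150139 peaks at DN and 107110 at DP, then 115074 at SP4 and 104411 at SP8.

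Positive selection is the rescue of DP thymocytes whose T cell receptor (TCR) binds self peptide on MHC with moderate strength. The signal runs through calcium and MAP kinase pathways and induces immediate early genes within a short time, among them the zinc finger factors of the EGR family and the orphan nuclear receptors of the NR4A family. NAB2 is a corepressor that binds EGR proteins, CD69 is a surface protein that holds cells in the thymus, and CD5 is a surface receptor that dampens TCR signalling and whose level follows the strength of that signal.

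Sorted stages were checked against marker genes by whether a transcription start site (TSS) lay in a called peak. Of 12 T lineage markers, 11 were called at each of DN, DP and SP8 and all 12 at SP4; the exception was *Zbtb7b*, the gene of the CD4 lineage factor ThPOK, which was called at SP4 alone. Of the markers of other cells, *Pax5* of B cells and *Lyz2* of myeloid cells were called at DN alone, whereas *Itgam* and *Epor* were called at all 4 stages. The TSSs of *Cd79a*, *Ms4a1*, *Csf1r*, *Spi1*, *Klf1* and 3 NK cell genes were not called at any stage. In sorted bulk cells, a region that is open in fewer cells cannot be told apart from one that is less open in each cell.

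The sequences of 7 regions are given first because the results turn on them: the 2 highest regions away from a TSS, 3 regions called in single positive cells but not before, 1 called at DP alone and 1 that was lower in single positive cells. Each is 200 bp of mm10 around the summit of the tallest peak, 5′ to 3′. Capitals mark matches to 14 motifs, which are given with their shares further on, spelled out except for the CArG box, a run of A and T between CC and GG. The last 2 were chosen after their values were seen.
*Cd69*, 9.2 kb upstream, chr6:129284486-129284685, plus strand: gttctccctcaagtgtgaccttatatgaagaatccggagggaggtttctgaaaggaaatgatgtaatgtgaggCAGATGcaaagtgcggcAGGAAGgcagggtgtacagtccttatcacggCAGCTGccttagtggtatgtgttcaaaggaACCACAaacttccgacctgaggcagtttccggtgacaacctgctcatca
*Nr4a3*, 29.9 kb downstream, chr4:48074984-48075183, plus strand: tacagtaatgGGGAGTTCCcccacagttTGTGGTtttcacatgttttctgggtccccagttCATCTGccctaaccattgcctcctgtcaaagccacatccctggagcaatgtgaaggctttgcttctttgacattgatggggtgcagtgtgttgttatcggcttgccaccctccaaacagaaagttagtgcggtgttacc
*Egr2*, 25.5 kb upstream, chr10:67512267-67512466, plus strand: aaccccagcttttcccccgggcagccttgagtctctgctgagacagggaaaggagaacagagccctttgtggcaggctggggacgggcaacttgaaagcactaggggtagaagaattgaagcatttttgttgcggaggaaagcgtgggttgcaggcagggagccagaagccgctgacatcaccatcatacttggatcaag
*Egr2*, 28.4 kb downstream, chr10:67566128-67566327, plus strand: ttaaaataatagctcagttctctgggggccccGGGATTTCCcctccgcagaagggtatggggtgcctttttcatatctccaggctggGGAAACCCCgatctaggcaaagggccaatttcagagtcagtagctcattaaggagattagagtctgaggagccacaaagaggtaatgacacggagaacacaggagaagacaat
*Cd5*, 6.9 kb downstream, chr19:10731986-10732185, plus strand: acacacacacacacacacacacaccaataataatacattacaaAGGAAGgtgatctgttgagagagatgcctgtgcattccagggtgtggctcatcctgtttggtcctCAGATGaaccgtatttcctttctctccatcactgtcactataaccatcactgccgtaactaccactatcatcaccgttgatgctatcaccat
*Nr4a3*, 28.4 kb downstream, chr4:48073465-48073664, plus strand: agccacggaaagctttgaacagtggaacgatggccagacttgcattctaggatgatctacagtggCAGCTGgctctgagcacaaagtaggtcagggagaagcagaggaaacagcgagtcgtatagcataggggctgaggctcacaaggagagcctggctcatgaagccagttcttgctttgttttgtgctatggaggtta
*Nr4a1*, 31.3 kb upstream, chr15:101235411-101235610, plus strand: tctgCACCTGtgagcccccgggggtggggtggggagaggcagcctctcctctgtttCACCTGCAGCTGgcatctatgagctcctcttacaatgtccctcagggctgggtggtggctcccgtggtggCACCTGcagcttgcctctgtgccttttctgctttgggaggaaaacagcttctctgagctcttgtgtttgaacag

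The *Egr2* region 25.5 kb upstream held none of the 14 motifs, whereas the region 28.4 kb downstream of the same gene held a pair of matches to the NF-kB motif. Both of the most accessible regions, at *Cd69* and *Nr4a3*, held E-box and RUNX matches. The *Nr4a1* region held 4 E-boxes, of which a pair stood side by side. A match is a string of letters and not a bound site.

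Promoter sequences came from the RefSeq table of GRCm38.p6, the assembly that mm10 is built on, which held entries for *Egr2*, *Nr4a1*, *Nr4a3*, *Nab2* and *Cd5*. The bases upstream of the TSS are printed as far as they lie outside annotated exons, which left too few for *Nab2*.
*Egr2* promoter, chr10:67537619-67537868, plus strand: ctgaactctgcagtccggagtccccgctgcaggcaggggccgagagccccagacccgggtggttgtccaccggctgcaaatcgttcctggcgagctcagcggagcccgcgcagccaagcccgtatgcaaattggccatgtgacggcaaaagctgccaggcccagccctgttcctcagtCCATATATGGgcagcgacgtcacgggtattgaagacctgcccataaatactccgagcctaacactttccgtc
*Nr4a1* promoter, chr15:101266596-101266845, plus strand: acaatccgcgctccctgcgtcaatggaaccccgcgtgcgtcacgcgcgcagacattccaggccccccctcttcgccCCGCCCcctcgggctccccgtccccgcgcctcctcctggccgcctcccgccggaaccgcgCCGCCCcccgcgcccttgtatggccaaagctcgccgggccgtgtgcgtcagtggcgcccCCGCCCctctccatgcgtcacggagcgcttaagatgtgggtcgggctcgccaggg
*Nr4a3* promoter, chr4:48045055-48045152, plus strand: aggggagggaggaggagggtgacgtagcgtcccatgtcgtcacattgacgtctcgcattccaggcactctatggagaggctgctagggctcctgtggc
*Cd5* promoter, chr19:10739003-10739224, minus strand: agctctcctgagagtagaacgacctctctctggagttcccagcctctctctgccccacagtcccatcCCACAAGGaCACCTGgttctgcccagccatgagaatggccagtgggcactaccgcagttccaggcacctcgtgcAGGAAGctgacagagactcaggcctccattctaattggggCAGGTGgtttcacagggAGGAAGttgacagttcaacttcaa

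The capitals in the *Egr2* promoter mark a CArG box, the motif of serum response factor (SRF). SRF is a known mediator of immediate early transcription downstream of MAP kinase signalling. Of 185978 regions, 46 held these letters within 200 bp around the summit. The *Nr4a1* promoter carried 3 matches to the SP/KLF motif, and the *Cd5* promoter carried 2 ETS and 2 E-box matches.

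All 8 genes had more regions for their length than the median gene, though not equally so. *Nr4a1* had 29 regions, or 3.60 per 10 kb of its window, and 2.51% of 20807 protein-coding genes had as many. *Cd5* followed with 3.42 per 10 kb, *Egr3* with 3.21, *Nab2* with 3.10, *Egr1* with 2.92, *Cd69* with 2.50 and *Nr4a3* with 2.07. *Egr2* had the fewest, 12 regions or 1.80 per 10 kb, against a median of 1.38 over all genes. As many as at *Egr2* were found at 36.3% of genes and as many as at *Nr4a3* at 27.6%, so these 2 lay below the upper quartile of 2.17. The number of peaks near the 8 genes was 132 at DN and 120 at DP, then 130 at SP4 and 124 at SP8. As a rate this was 8.79, 11.2, 11.3 and 11.9 of each 10000 peaks in the lists, lowest at DN, whose list was the longest.

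**Figure D1:**
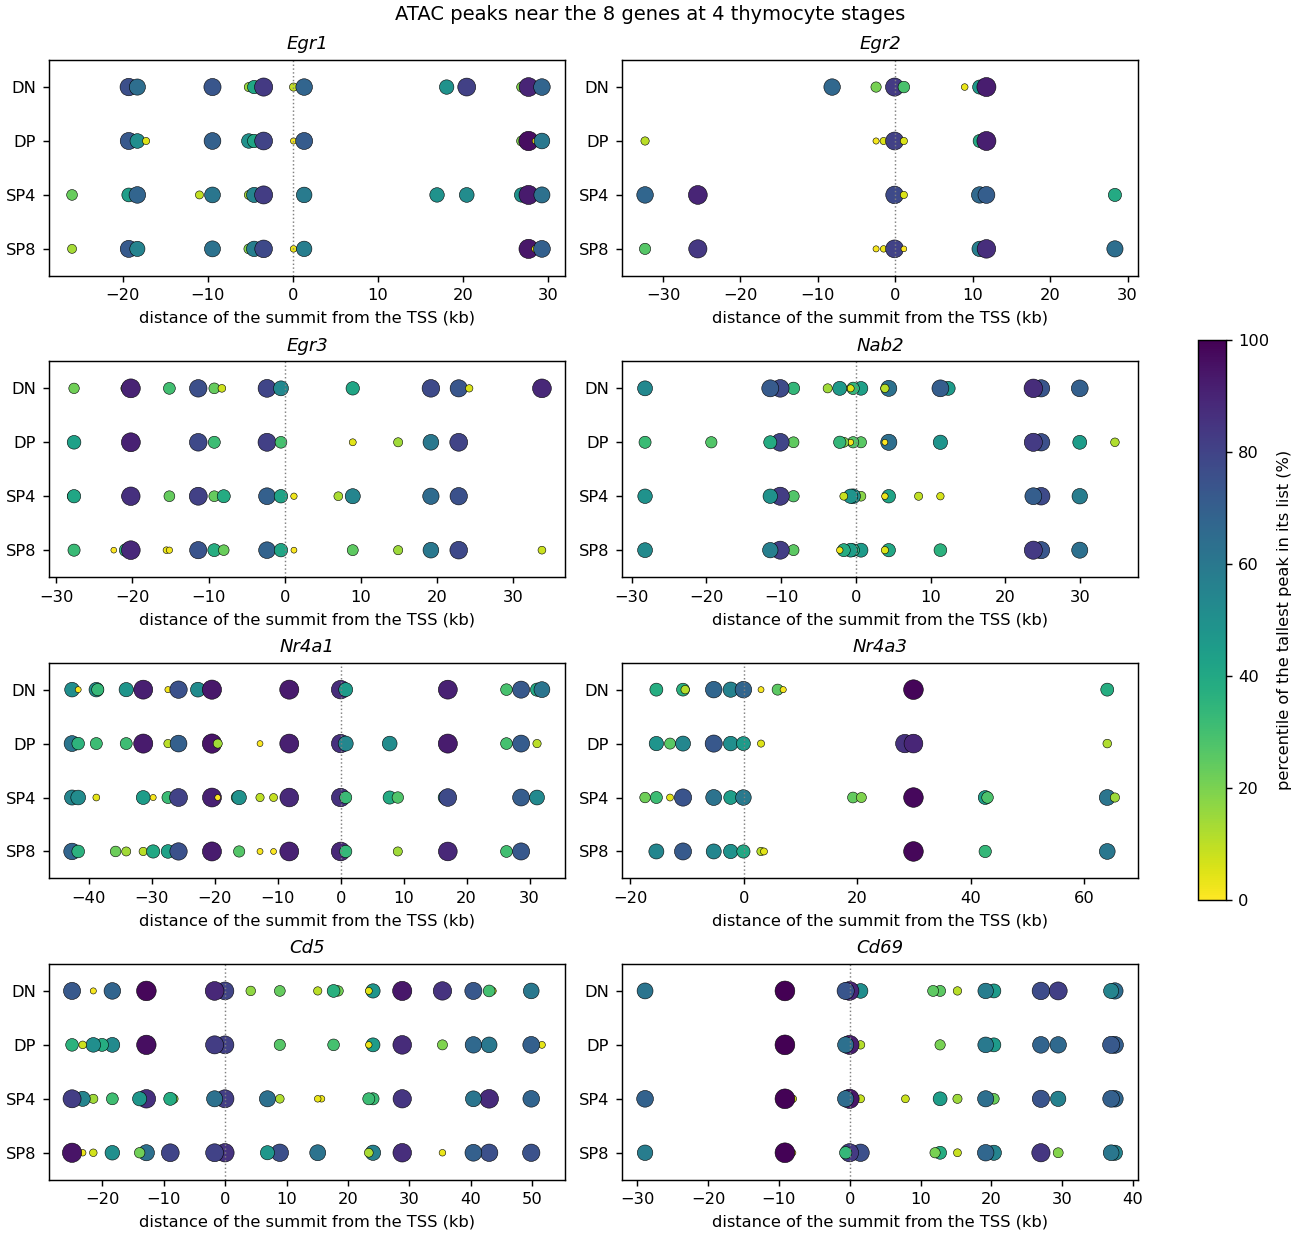
Regions near each gene by stage. The x axis is the distance of the summit from the TSS of the principal transcript in kb, with the direction of transcription to the right; rows are the 4 stages, and the colour and size of a point give the percentile of the tallest peak within its list (%). Most rows repeat from stage to stage, while *Egr2* has a high point 25.5 kb upstream at SP4 and SP8 that is missing at DN and DP.

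Heights are given as the fold enrichment at the summit over the local background, as the peak caller wrote it, and as a percentile, the share of peaks in the same list that were lower. Percentiles allow the lists to be set side by side, since the median fold enrichment of a list ran from 5.45 at DP to 6.11 at SP8. A region that was not called at a stage may still hold signal under the threshold.

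A larger share of regions was open throughout near these genes than over the genome. Of the 168 regions, 79 (47.0%) were called at all 4 stages, against 34.1% of all regions and 35.4% of those within 30 kb of any protein-coding gene. Regions called at 1 stage only were fewer, 44 (26.2%) against 38.5% of all. The 79 were lower than all regions called at all 4 stages. Their median percentiles were 67.6, 60.1, 61.1 and 60.3 from DN to SP8, against 73.5, 68.2, 69.4 and 67.1. The share open from DN to SP8 differed among the genes: 14 of 21 regions at *Nab2* and 11 of 17 at *Cd69*, but 7 of 21 at *Nr4a3* and 4 of 12 at *Egr2*. Over protein-coding genes the median share was 40.0%, so *Nr4a3* and *Egr2*, both at 33.3%, were below it. *Egr1*, *Egr3*, *Nr4a1* and *Cd5* lay between 41.4% and 47.4%. *Nr4a3* had the most regions of a single stage, 11 of its 21.

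The stage-restricted regions leaned to the single positive side. The lean lay in regions of both SP4 and SP8 and in those with DN, not in those of SP4, SP8 or DP alone. Regions called at SP4 or SP8 but at neither DN nor DP numbered 35 (20.8%), where 15.4% of all regions were of this kind. Regions called at DN or DP but at neither SP4 nor SP8 numbered 26 (15.5%), where 32.5% of all were. Within these classes, 16 regions (9.52%) were called at both SP4 and SP8, against 3.82% of all regions, and 1 region (0.595%) was called at both DN and DP, against 5.59%. DN alone accounted for 18 regions (10.7%), against 21.7% of all. The other single stages were near the background. DP alone had 7 regions (4.17%), against 5.17%, SP4 alone 13 (7.74%), against 7.39%, and SP8 alone 6 (3.57%), against 4.21%. The 8 genes contributed unequally to the 16: 5 lay at *Cd5*, 4 at *Nr4a1*, 2 each at *Egr2* and *Egr3*, 1 each at *Egr1*, *Nr4a3* and *Cd69*, and none at *Nab2*. The median percentile of the 16 was 33.1 at SP4 and 22.3 at SP8, against 36.3 and 30.3 over all 7101 regions of this class. Regions of a window share a locus and are not replicates.

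With the lists cut to equal numbers of peaks, the share called at all 4 stages was 44.4% against 36.8% of all regions, a smaller gap. The share called at SP4 or SP8 alone also came closer to the background, 22.9% against 20.3%. In the same lists 11.1% were called at DN or DP alone, against 23.8%, and 11.8% at both SP4 and SP8 alone, against 5.67%.

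**Figure D2:**
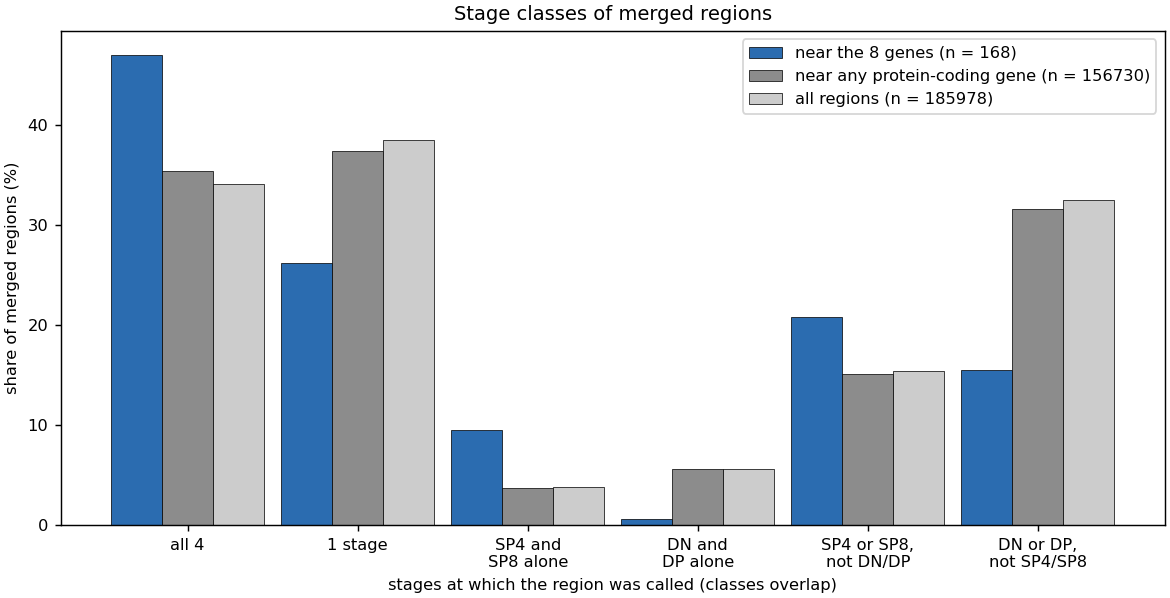
Share of merged regions (%, y axis) in each class of stages (x axis), for the 168 regions near the 8 genes, the 156730 within 30 kb of any protein-coding gene and all 185978; the classes overlap, and the bars have no error because the lists were pooled. The bar of regions called at both SP4 and SP8 alone stands at 9.52% near the 8 genes and 3.82% over all regions, and that of DN and DP alone at 0.595% and 5.59%.

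The EGR family comprises zinc finger factors that carry early TCR signals to target genes such as those of ID proteins. *Egr1* (chr18:34859823-34864984, plus strand) had 19 regions, between 13 peaks at DP and 15 at DN and SP4. A narrow region at its TSS was near the bottom of the lists by fold enrichment, with a percentile of 9.67 at DN, 1.62 at DP and 3.06 at SP8. It was not called at SP4, and by q-value it stood at 63.1 at DN, 48.0 at DP and 54.7 at SP8. The region that covers the TSS of a shorter transcript, 1.3 kb inside the gene, was 1393 bp wide and lay at percentile 67.7 at DN and 71.4 at DP, then 58.9 at SP4 and 57.7 at SP8. Both single positive stages were thus below both early stages there.

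The tallest *Egr1* region lay 27.7 kb downstream of the TSS, in the interval towards *Etf1*. Its fold enrichment was 16.0 at DN and 22.4 at DP, then 20.3 at SP4 and 21.8 at SP8. DN was the low stage, and the percentile ran from 89.6 there to 96.3 at DP. A region 3.4 kb upstream was nearly level, at 83.0, 80.0, 82.1 and 78.0 from DN to SP8. The region called at SP4 and SP8 alone, 25.9 kb upstream in an intron of *Kdm3b*, was low, at 23.2 and 13.5.

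*Egr2* (chr10:67535475-67542188, plus strand), which acts with EGR1 and EGR3 in selected cells, had a high region that was called in single positive cells alone. The region 25.5 kb upstream (chr10:67512092-67512668, 577 bp, between genes) was not called at DN or DP, and it reached 17.6-fold enrichment at SP4 and 14.9-fold at SP8. These values stood at percentiles 89.6 and 83.6 of the lists. Of the 7101 regions called at SP4 and SP8 alone, 168 (2.37%) were as high at SP4 and 159 (2.24%) as high at SP8. A second such region, 28.4 kb downstream of the TSS and past *Ado*, had a fold enrichment of 4.98 at SP4 and 8.62 at SP8, so the order of the single positive stages was the opposite.

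The *Egr2* promoter region, 1389 bp wide and holding the sequence printed above, was level at all stages, with percentiles of 82.6, 80.5, 77.7 and 80.2. It thus stayed within 5 points while the flanking regions differed. A region at the far upstream TSS, 2.5 kb away, was low by fold enrichment at DN, DP and SP8, at 20.6, 1.62 and 1.35. It was not called at SP4, and by q-value it stood at 54.9, 31.6 and 31.0. By the mean percentile over the 4 stages, with 0 where a region was not called, the 2 highest regions away from the *Egr2* TSS lay in and at *Ado*, the neighbouring gene. At SP4 and SP8 the region 25.5 kb upstream was above the lower of them, which was at 66.2 and 57.4. The one over the *Ado* TSS stood at 91.9, 91.7, 70.4 and 87.1, lowest at SP4.

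*Egr3* (chr14:70077203-70082614, plus strand) had 21 regions, and none covered an annotated TSS of the gene. The nearest, named after its values were seen, was the region 0.5 kb upstream, which stood at 53.2 at DN and 29.6 at DP, then 42.1 at SP4 and 41.4 at SP8. A wide region 2.3 kb upstream (1569 bp), also named after its values were seen, was higher, at 79.6 and 80.9 at DN and DP and 69.6 and 68.5 at SP4 and SP8. The single positive stages were again the lower ones, as at the *Egr1* TSS region.

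The 2 highest *Egr3* regions lay 20.2 kb and 11.3 kb upstream, at percentiles of 86.3 to 90.8 and 74.0 to 80.8 over the stages. The first covers the TSS of *Gm33524*, a neighbouring transcript. A region 33.8 kb downstream, in an intron of *Bin3*, had a fold enrichment of 15.5 at DN and 3.06 at SP8 and was not called at DP or SP4. It was named after its values were seen. The 2 regions called at SP4 and SP8 alone were lower, at 38.7 and 22.8 (8.0 kb upstream) and at 2.42 and 0.653 (intron).

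*Nab2* (chr10:127660918-127668568, minus strand) encodes the corepressor that EGR factors induce and that in turn restrains them. It sits between *Stat6* and *Nemp1*, and 2 regions covered its TSSs. The one 0.4 kb upstream of the principal TSS stood at 34.1 at DN and 26.9 at DP, then 50.7 at SP4 and 35.7 at SP8. The one 1.6 kb upstream stood at 3.21, 18.9, 8.42 and 38.3. Both held a match to the EGR motif, and neither was high in any list by fold enrichment. By q-value the first stood at 65.2, 61.3, 78.9 and 71.9, and the second at 23.5, 49.6, 46.0 and 70.4.

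Between them, 0.7 kb upstream of the principal TSS and in an exon of a *Nemp1* transcript, a region had a fold enrichment of 2.84 at DN and 2.36 at DP, and 5.71 at SP4 and 5.46 at SP8. Here both single positive values were above both early ones. In the other direction, a region in an exon of *Stat6*, 11.3 kb downstream, stood at percentile 70.6 at DN and 48.3 at DP, then 6.47 at SP4 and 36.3 at SP8. These were named after their values were seen. The 2 highest regions of the window were the TSS regions of *Stat6* and *Nemp1*, at 70.4 to 87.2 and at 77.6 to 82.3.

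*Nr4a1* (chr15:101254269-101274795, plus strand) encodes NUR77, widely used as a reporter of TCR signal strength. Its promoter region was level, with a fold enrichment of 14.5 at DN and 14.3 at DP, then 15.3 at SP4 and 17.8 at SP8 and percentiles of 85.7 to 88.8. The 2 highest regions away from the TSS, 20.4 kb and 8.1 kb upstream, were level as well, at 90.8 to 94.7 and at 88.6 to 92.6. The second lies inside the gene, over an exon of a longer transcript.

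The exception was a region 31.3 kb upstream of the *Nr4a1* TSS (chr15:101235291-101235984), between *Grasp* and *Nr4a1*. Its fold enrichment was 17.0 at DN and 18.6 at DP, and 5.45 at SP4 and 3.22 at SP8. The percentile passed from 92.7 at DP to 45.0 at SP4 and 10.5 at SP8. A region 27.4 kb upstream took the opposite course on a lower level, from 1.59 at DN and 10.3 at DP to 31.7 at SP4 and 42.6 at SP8. Of the 4 regions called at SP4 and SP8 alone, the highest at SP4 was 16.1 kb upstream, at 49.5 and 26.6, and the others lay at or below 40.1. The regions 31.3 kb and 27.4 kb upstream were named after their values were seen.

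*Nr4a3* (chr4:48045153-48086447, plus strand), the NR4A gene that acts beside *Nr4a1* in strongly signalled thymocytes, had no other protein-coding gene in its window. Its TSS region stood at 67.6 at DN and 45.7 at DP, then 59.0 at SP4 and 40.1 at SP8. A region over another TSS, 6.0 kb inside, was called at DN alone, at 25.2. The tallest region was intronic, 29.9 kb downstream of the TSS (chr4:48074798-48075440). It had a fold enrichment of 26.9 at DN and 16.0 at DP, then 26.9 at SP4 and 28.6 at SP8, so that DP was the low stage. The next by mean percentile, 5.3 kb upstream, stood at 67.5 at DN and 73.0 at DP, then 61.9 at SP4 and 54.0 at SP8.

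At DP, where the region 29.9 kb downstream was lowest, a second region was called next to it, 28.4 kb downstream of the TSS (chr4:48073364-48073730). It had a fold enrichment of 14.1 at DP, percentile 85.8, and was not called at DN, SP4 or SP8. Of the 9619 regions called at DP alone, 46 (0.478%) were as high. A further region called at DP alone, 27.9 kb downstream of the TSS, was at percentile 1.13. Both were named after their values were seen. Past the 3′ end, 42.6 kb from the TSS, lay the region of *Nr4a3* that was called at SP4 and SP8 alone, at 45.0 and 33.5.

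*Cd5* (chr19:10717116-10739002, minus strand) had 28 regions and the most of those called at SP4 and SP8 alone. Its promoter region was at 79.8 at DN and 80.5 at DP, then 81.8 at SP4 and 85.4 at SP8, a range of 6 points or less. Upstream, in and around the transcript *A430093F15Rik*, the regions differed more. The highest of these, 12.8 kb upstream (chr19:10751558-10752030), had a fold enrichment of 26.0 at DN and 22.2 at DP, then 15.6 at SP4 and 8.43 at SP8. A region 24.9 kb upstream had 9.20 at DN and 4.40 at DP, then 13.4 at SP4 and 22.7 at SP8. The order of DP, SP4 and SP8 was thus opposite at these 2 regions.

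Of the 5 *Cd5* regions called at SP4 and SP8 alone, 4 lay upstream and 1 in the gene. The region 8.9 kb upstream had a fold enrichment of 4.86 at SP4 and 13.1 at SP8, and 237 of the 7101 regions of its class (3.34%) were as high at SP8. The intronic one, 6.9 kb downstream of the TSS, had 8.01 at SP4 and 5.79 at SP8. The region 13.9 kb upstream stood at percentile 47.3 at SP4 and 21.8 at SP8. The other two were at or below 14.9.

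The single region called at DN and DP alone near any of the 8 genes lay in *Cd5* as well, over an exon 17.7 kb downstream of the TSS, at 36.7 and 29.3. Another intronic region, 8.9 kb downstream, stood at 23.7, 26.5 and 12.0 from DN to SP4 and at 75.9 at SP8. Farther downstream in *Vps37c*, a region 35.4 kb from the TSS had a fold enrichment of 13.7 at DN, against 3.56 at DP and 2.63 at SP8, and was not called at SP4. A region 43.0 kb downstream had 4.18 at DN and 6.77 at DP, then 16.7 at SP4 and 11.7 at SP8. The regions 24.9 kb upstream and 8.9, 35.4 and 43.0 kb downstream were named after their values were seen. The region with the highest mean percentile away from the *Cd5* TSS lay 28.8 kb downstream, over an exon of *Vps37c*, at 84.7 to 93.5.

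*Cd69* (chr6:129267325-129275436, minus strand) held the tallest region of all 168. It lay between genes, 9.2 kb upstream of the TSS (chr6:129284377-129285008), with a fold enrichment of 35.3 at DN and 36.5 at DP, then 33.6 at SP4 and 34.4 at SP8. Its percentile was 99.5 or more at each stage, so it was as high before selection as after it. Of the 63369 regions called at all 4 stages, 108 (0.170%) were as high at DP.

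The *Cd69* promoter region was at 89.5 at DN and 91.5 at DP, then 94.1 at SP4 and 83.1 at SP8, by fold enrichment the highest TSS region of the 8 genes at every stage but SP8. By q-value it was at 90.8 at DN and 87.3 at DP, below the promoter regions of *Nr4a1* (95.8 and 94.2) and *Egr2* (94.0 at both). A region 0.6 kb upstream was at 73.5, 63.6, 65.2 and 33.5, lowest at SP8. A region 1.5 kb into the gene, over an exon, was at 51.1 at DN and 11.0 at DP, then 8.68 at SP4 and 75.5 at SP8. SP4 and SP8 thus differed by more than 60 points there, in the direction opposite to the promoter. The region 27.0 kb downstream was at 77.1, 68.3, 74.2 and 84.1, and the only one called at SP4 and SP8 alone was at 6.55 and 1.29. The regions 0.6 kb upstream and 1.5 kb inside were named after their values were seen.

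**Figure D3:**
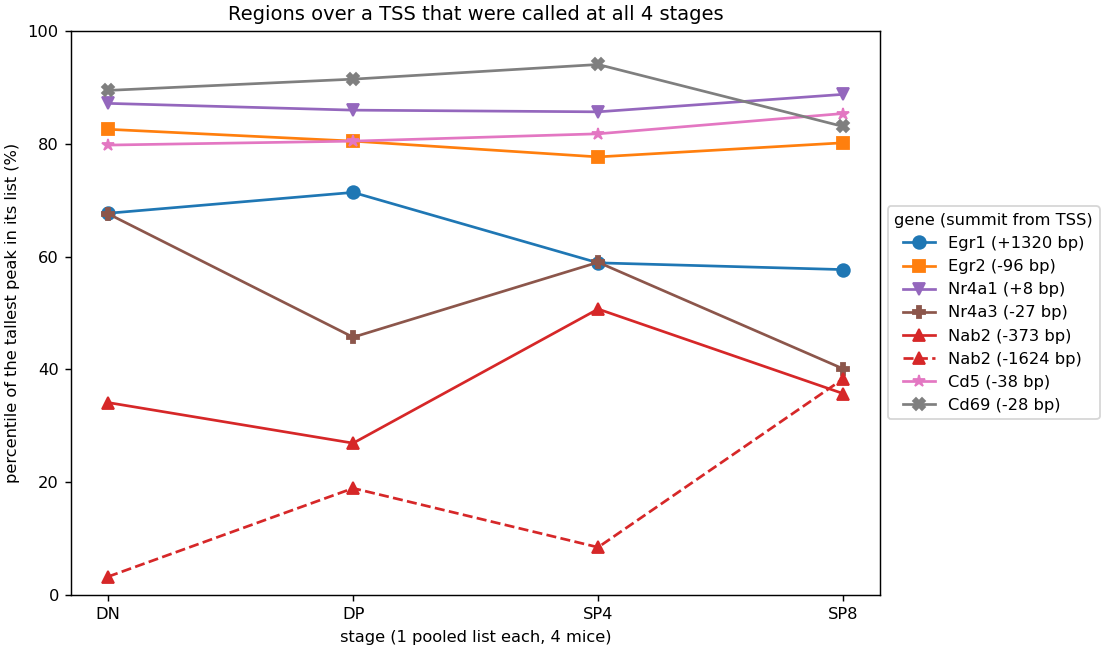
Percentile of the tallest peak within its list (%, y axis) at each stage (x axis) for the 8 regions that cover a TSS of one of the genes and were called at all 4 stages; each point is 1 pooled list. *Nr4a1*, *Egr2*, *Cd5* and *Cd69* stay between 77.7 and 94.1, and the *Nab2* regions stay at or below 50.7.

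**Figure D4:**
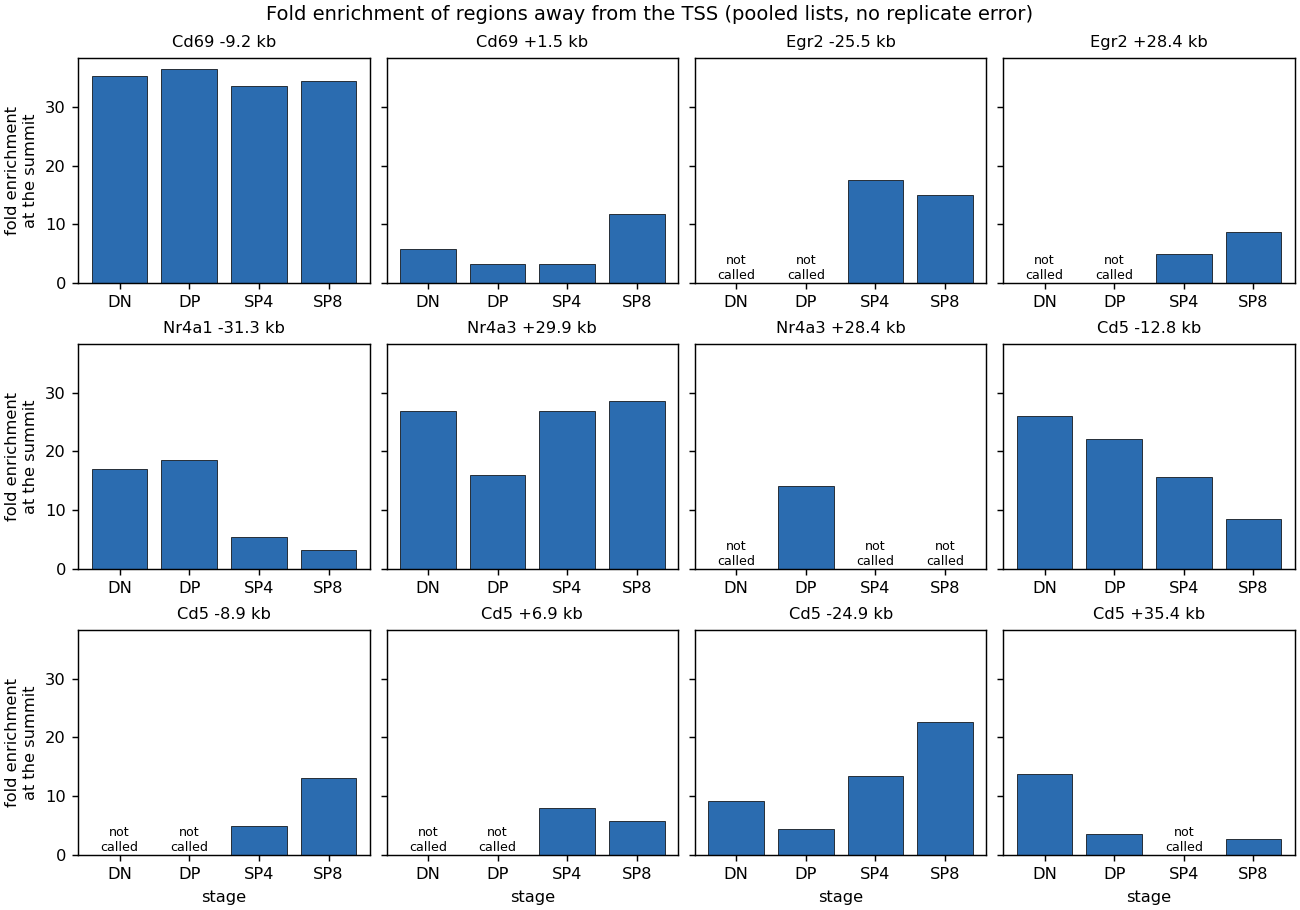
Fold enrichment at the summit (y axis, from 0) at each stage (x axis) for 12 regions, labelled by gene and distance of the summit from the TSS; bars are pooled lists with no error, and stages without a called peak are marked. The *Cd69* region 9.2 kb upstream is level, from 33.6 to 36.5, while the *Egr2* region 25.5 kb upstream appears at SP4 and SP8 and the *Nr4a1* region 31.3 kb upstream drops from 18.6 at DP to 3.22 at SP8.

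Changes of height among the 79 regions called throughout were set beside those of all such regions. From DP to SP4, 12 (15.2%) were at least 20 percentile points higher, against 13.7% of the 63369 regions called at all 4 stages, and 10 (12.7%) were at least 20 points lower, against 11.8%. From DP to SP8, 9 (11.4%) were higher, against 12.2%, and 8 (10.1%) lower, against 13.4%. The comparisons share the DP list. The median difference was -1.54 points to SP4, against 0.336 over all such regions, and 0.767 points to SP8, against -0.152. *Egr3* 8.9 kb downstream, from 4.59 at DP to 54.4 at SP4 and 24.8 at SP8, and *Nr4a3* 64.1 kb downstream of its TSS, from 11.8 to 61.1 and 60.4, were among those higher at both single positive stages, and were named after their values were seen. With percentiles taken from the q-value, those at least 20 points lower were fewer, 3 (3.80%) at SP4 against 11.1% of all such regions and 4 (5.06%) at SP8 against 13.6%, while 10 (12.7%) were higher at SP4 against 14.2% and 11 (13.9%) at SP8 against 11.9%.

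Summed over the whole window, the height near each gene differed little between stages. The fold enrichments of all peaks in a window were divided by the median of their list and added, and 2 stages were compared as a log2 ratio with 1 added to each sum, over 16101 genes with at least 5 regions. All 8 genes passed this filter. From DN to DP, none of the 8 was at least 2 times higher or lower, where 0.0497% and 10.2% of genes were. From DP to SP4 none was past this limit, where 2.33% of genes were higher and 0.863% lower, and from DP to SP8 none, where 1.35% were higher and 1.63% lower. From SP4 to SP8 none was, where 0.161% were higher and 1.08% lower.

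The log2 ratio of SP4 over DP ran from -0.19 at *Nab2* to 0.21 at *Nr4a3*, with a median of 0.07, beside 0.02 over all genes. That of SP8 over DP ran from -0.20 at *Nr4a1* to 0.21 at *Cd5*, with a median of -0.02, beside -0.04. For DP over DN the 8 genes lay between -0.35 at *Egr3* and -0.07 at *Egr2*, with a median of -0.17 beside -0.30 over all genes. With equal numbers of peaks per list the median of all genes for DP over DN moved to 0.28, so the sign of that comparison changed with the cut. The cut also reset the median fold enrichment of each list. How much of the change came from list length or from that rescaling was not tested. With the *Egr2* region 25.5 kb upstream called at SP4, the sum for *Egr2* was still lower there, 10.0 against 11.3 at DP. Its window held 7 peaks at SP4 and 11 at DP. These are peaks and not merged regions, and a region split into several peaks added each of them to the sum. The log2 ratio of SP4 over DP for *Egr2* was -0.17, and 0.09 when percentiles were summed in place of fold enrichments.

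**Figure D5:**
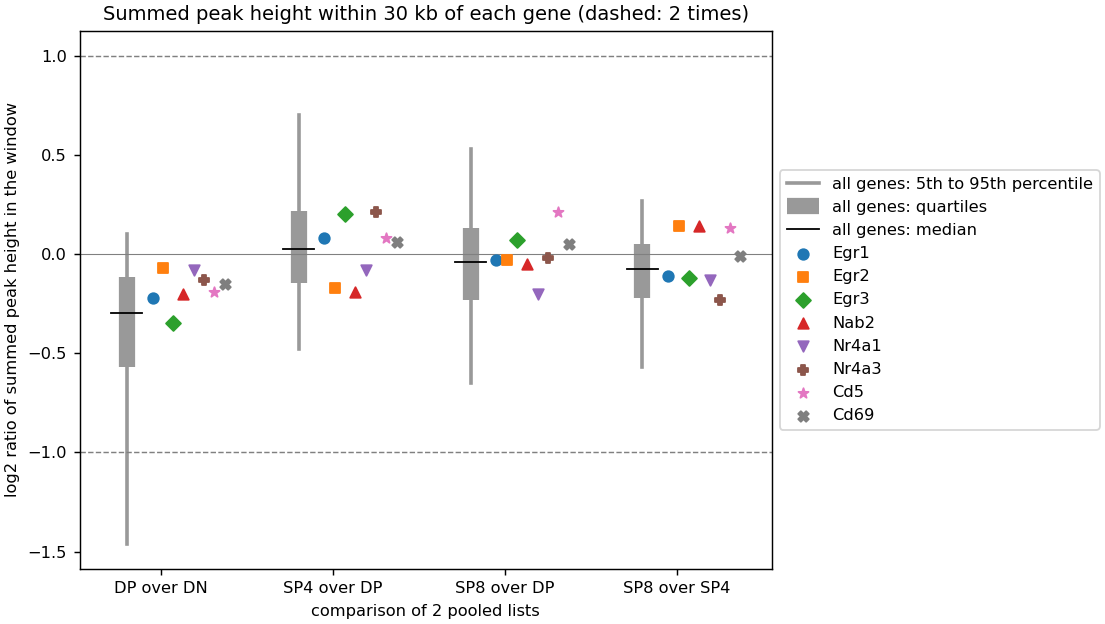
Log2 ratio of the summed peak height within 30 kb of each gene (y axis) for 4 comparisons of pooled lists (x axis); grey lines and bars give the 5th to 95th percentile, quartiles and median of 16101 genes, coloured points the 8 genes, and dashed lines a change of 2 times. All points lie between -0.35 and 0.21, inside the dashed lines.

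Other genes of the response were treated in the same way. None of 22 was past 2 times in any of the 4 comparisons. Among close relatives of the 8 genes, *Egr4*, an EGR gene, had a log2 ratio of -0.85 for DP over DN, -0.86 for SP4 over DP and -0.92 for SP8 over DP. It went from 8 peaks at DN to 2 at SP4, while the whole lists held 150139 and 115074 peaks. *Nr4a2* had 17 peaks at DN and 10 at DP in 13 merged regions, so some regions held more than 1 peak at DN. Its log2 ratio of DP over DN was -0.43, beside a median of -0.30 over all genes. For 7 genes that act in selected cells, the ratio of SP4 over DP ran from -0.09 at *Ccr7* to 0.60 at *Tox*, needed for the CD4 lineage. Their median was 0.31, beside 0.02 over all genes. Of the 7, 4 were above 0, as were 8610 of all 16101 genes. *Cd28* had -0.05 and *Gfi1* -0.02. For SP8 over DP they ran from -0.06 to 0.65 at *Cd6*, the relative and neighbour of *Cd5*, with a median of 0.30. For 12 TCR-induced genes, among them *Id3*, *Junb* and *Fos*, the ratio of SP4 over DP ran from -0.22 to 0.23, with a median of 0.00.

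By the shares of their summed height over the 4 stages, the genes most like each of the 8 were *Zfp58* and *Gatad2a* for *Egr1*, *Pmpca* and *Icam2* for *Egr2*, *Kif17* and *Map4k1* for *Egr3*, *2310011J03Rik* and *Ska2* for *Nab2*, *Pprc1* and *Cyb561d2* for *Nr4a1*, *Trim37* and *Rcor1* for *Nr4a3*, *Nrarp* and *Gstt3* for *Cd5*, and *Tmem107* and *Rap1b* for *Cd69*. The distances were 0.0009 to 0.0039 over 4 values, where the median gene was 0.0559 to 0.0702 away. The shares of *Cd69*, 26.6%, 23.8%, 24.9% and 24.7% from DN to SP8, were close to even.

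Motifs were searched on both strands in the 200 bp around each summit, and the share near the 8 genes is set beside that of all regions. SRF's CArG box was found in 5 of 168 regions (2.98%), against 0.759%. Among them were those 1.3 kb inside *Egr1*, at the *Egr2* promoter, 15.4 kb upstream of *Nr4a3* and 20.4 kb downstream of the *Cd69* TSS. The EGR motif (GTGGGCG) was in 7 regions (4.17%), against 2.45%, with both *Nab2* TSS regions and the far upstream *Egr2* TSS region among them. The CRE (TGACGTCA) was in 2 (1.19%), against 0.448%, and SP/KLF (GGGCGG), a motif of GC-rich promoters, in 27 (16.1%), against 10.4%.

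NFAT (TGGAAA), the motif of the factor that calcium signals activate, was in 29 regions (17.3%), against 13.2%, but within 100 bp of sequence around the summit the order turned, 3.57% against 5.05%. NF-kB (GGGNNTTCC) was in 8 (4.76%), against 3.46%. The shares of AP-1 (TGANTCA, 7.14% against 7.18%), ETS (AGGAAG, 41.7% against 40.2%) and CTCF (CCACNAGG, 7.14% against 6.29%) were close to those of all regions. The shares of the E-box, RUNX, GATA and TCF7/LEF1 motifs were lower than over all regions. The E-box (CAGNTG) was in 48.2% of regions, against 53.9%, and the RUNX motif (TGTGGT) in 21.4%, against 25.2%. The motif of GATA factors (AGATAA) was in 6.55%, against 8.07%. The motif of TCF7/LEF1 (ATCAAAG) was in 3 regions (1.79%), against 4.15%, but within 100 bp the shares were close, 1.79% against 1.87%. NR4A (AAAGGTCA) was found in 1 region (0.595%), against 0.745%, and it lay in an exon of *Stat6* beside *Nab2*; within 100 bp the share was the same 0.595%, against 0.321%. In the 250 bases upstream of a TSS, 1.47% of 32851 RefSeq promoters held a CArG box, and 4 of the 5 *Egr2* entries did, of which 3 overlap each other. *Nr4a1*, *Nr4a3*, *Nab2* and *Cd5* had 1 entry each, none with a match. The matches overlap where motifs share letters, and part of the regions share a promoter, so the shares are a description.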

How the data were processed

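ATAC-seq libraries of 4 thymocyte stages from 4 mice were used as 4 peak lists, 1 per stage. Per the study's methods, the authors used BWA to align reads to mm10 and Picard to drop duplicates, sampled each library down to the median depth, pooled the mice of a stage and ran MACS2 at 5% FDR (its version is not given in the sources used here). The ratio in the lists is the fold enrichment at the summit over the local background, and the −log10 q-value is that of MACS2, both as the authors deposited them. Because the calls rest on pooled reads, no test was made, p-values of the caller were not used as tests between stages, and reads per library were not used here. The sampling makes depths similar between stages, pooling hides differences between mice, and a low local background raises the fold enrichment.

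Overlapping peaks of different lists (1 bp or more) were merged, and a region was called at each stage that had a peak in it. Gene windows were the GENCODE M21 gene with 30 kb on either side. A region was placed by its summit relative to the TSS of the principal transcript, and assignment to a gene was by position only. Motif matches were exact. The text names every region over a TSS of the 8 genes and every region called at DN and DP alone. It also names the 2 highest others of each gene by mean percentile, and some chosen after their values were seen, which are marked. Regions called at SP4 and SP8 alone are named or, for the rest at *Nr4a1* and *Cd5*, given together by an upper bound. The genes and lists were chosen with earlier results of these data known. Merging, window sums and motif matching were tested on simulated data. Python 3.11.15, numpy 2.4.6, pandas 2.3.3 and samtools 1.23.1 were used, and figures were drawn with matplotlib 3.10.9. Alternatives were a stricter q-value, flanks of 10 and 50 kb, equal list lengths, other overlap rules, other height scales, other limits and other motif windows. Some marker genes and the sequence of 1 region are not reported here.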

Additional observations from a re-analysis of the deposited data

How the results depend on the processing

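No paired analysis was possible because peaks were called on reads pooled over the 4 mice, and leaving out each mouse was not possible for the same reason. A flank of 10 kb left 74 peaks at DN and 68 at DP, then 72 at SP4 and 71 at SP8, in 92 regions. Of these, 44 were called at all 4 stages, 23 at 1 stage, 22 at SP4 or SP8 alone and 13 at DN or DP alone. A flank of 50 kb gave 67 regions of 1 stage and 42 of DN or DP alone, and equal list lengths gave 17 of DN or DP alone. The other alternatives kept these counts within 1.5 times of those reported, as did the flank of 50 kb for the total and the other classes. The counts at 50 kb were not turned into shares, so the lean to the single positive side was not judged there. By q-value percentiles, 10 regions called throughout were higher and 3 lower at SP4 than at DP by 20 points, and 11 higher and 4 lower at SP8. With a limit of 10 points, 21 of 79 were higher and 20 lower at SP4, and 21 higher and 15 lower at SP8, where of all 63369 such regions 16105 were higher and 14251 lower at SP4, and 14828 higher and 15864 lower at SP8. No window sum of the 8 genes passed 2 times under any alternative tried, but signs changed. With equal list lengths the sign differed for DP over DN in 8 of 8 genes, for SP4 over DP in 4, for SP8 over DP in 3 and for SP8 over SP4 in 5. With another scaling, pseudocount or filter it changed for DP over DN in 0, for SP4 over DP in 2, for SP8 over DP in 4 and for SP8 over SP4 in 1. Without scaling by the list median, the median of all genes was 0.14 for SP4 over DP and 0.12 for SP8 over DP. TSS region percentiles moved by 10 points or more in 27 of 50 comparisons with an alternative. The share of the CArG box over that of all regions, 3.92 times, was 7.15 times within 100 bp and 2.39 times within 400 bp, and those of EGR, TCF7/LEF1, NFAT, NR4A and GATA, 1.70, 0.43, 1.31, 0.80 and 0.81 times, were 1.07, 0.95, 0.71, 1.85 and 0.53 times within 100 bp. The causes of these shifts were not tested. Heights rest on pooled reads, and their error over mice is unknown.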
